A study of Mus musculus with 12 samples.

Results

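The genes described here are 10 regulators of the G1 phase of the cell cycle: the D-type cyclins Ccnd1, Ccnd2 and Ccnd3, the kinases Cdk4 and Cdk6 that they activate, and the CDK inhibitors Cdkn1a, Cdkn1b, Cdkn1c, Cdkn2b and Cdkn2c. They were chosen by name and matched by Ensembl identifier, and all 10 had enough counts to be tested among 16981 tested genes of 78334 in the table. RNA of the mouse left ventricle was compared in 3 groups of 4 biological replicates, with 1 library each. Sham vehicle mice had a sham operation and ate normal chow. UNX/DOCA vehicle mice were operated to induce diastolic dysfunction (by name, removal of a kidney and the mineralocorticoid deoxycorticosterone acetate) and ate the same chow. The UNX/DOCA ITF2357 group was operated likewise and ate, from 4 weeks after surgery and for 4 weeks, chow containing the histone deacetylase inhibitor ITF2357, also called givinostat. The ITF2357 animals thus all carry the operation, and no Sham group received the drug. The labels name no strain, sex or age.

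D-type cyclins bind CDK4 or CDK6 and start the phosphorylation of the retinoblastoma protein, which releases E2F factors and lets a cell enter S phase. The INK4 inhibitors (here p15, encoded by Cdkn2b, and p18, encoded by Cdkn2c) bind CDK4 and CDK6 directly, while the Cip/Kip inhibitors p21 (Cdkn1a), p27 (Cdkn1b) and p57 (Cdkn1c) bind cyclin-CDK complexes more broadly. Adult cardiomyocytes rarely divide, so in ventricular tissue these RNAs also come from endothelial cells, fibroblasts and leukocytes. Cdkn1a is a textbook target of p53 and a gene that HDAC inhibitors induce in many cultured cells, in part through GC boxes near its start site.

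Because of that role the bases before both Cdkn1a start sites are shown, with those before the upstream start of Cdkn2c, the inhibitor gene whose level was higher in each drug-treated heart than in any other heart. The sequences are the 250 bases before each start in RefSeq's GRCm38.p6 build, 5′ to 3′ on the gene's strand. Capitals mark GC boxes (GGGCGG, searched on both strands) or the CATG cores of a p53-type response element (CATGNNNNNNCATG, which reads the same on both strands).
Cdkn1a upstream start (chr17:29090729-29090978, plus strand): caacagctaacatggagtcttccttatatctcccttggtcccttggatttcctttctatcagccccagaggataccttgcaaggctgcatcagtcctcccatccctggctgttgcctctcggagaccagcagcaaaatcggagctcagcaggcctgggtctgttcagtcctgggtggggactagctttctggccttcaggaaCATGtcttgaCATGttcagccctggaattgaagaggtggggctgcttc
Cdkn1a downstream start (chr17:29093519-29093768, plus strand): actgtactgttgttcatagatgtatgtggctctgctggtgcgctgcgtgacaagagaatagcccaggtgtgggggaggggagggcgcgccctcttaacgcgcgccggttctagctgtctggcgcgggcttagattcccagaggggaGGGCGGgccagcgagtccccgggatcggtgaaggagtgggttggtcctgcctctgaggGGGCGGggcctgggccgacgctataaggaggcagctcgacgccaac
Cdkn2c upstream start (chr4:109666757-109667006, minus strand): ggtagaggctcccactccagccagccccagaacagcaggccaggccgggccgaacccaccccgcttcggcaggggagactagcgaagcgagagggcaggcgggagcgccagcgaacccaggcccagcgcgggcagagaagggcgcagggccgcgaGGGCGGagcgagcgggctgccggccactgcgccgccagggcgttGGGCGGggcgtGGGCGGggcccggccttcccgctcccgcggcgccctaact
The downstream Cdkn1a window holds 2 GC boxes and the upstream Cdkn2c window 3, while the upstream Cdkn1a window and the window of a second, downstream Cdkn2c start hold 0. Of the other genes, the windows of the Ccnd3 starts hold 2 and 1, those of Cdk4 and Cdkn1b 1 each, and those of Cdk6 and Cdkn2b 0. Such a box occurs in 32.7% of 32851 windows of this length. The paired CATG cores occur in 0.490% of them, the upstream Cdkn1a window included. Windows were found for 7 of the 10 genes, and not for Cdkn1c, Ccnd1 and Ccnd2. A match is a description of the letters, and the counts are per gene, so transcripts from the 2 starts of Cdkn1a are summed in every value below.

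Values are CPM, the count of a gene scaled to a common library size with TMM factors, and libraries held between 23354045 and 34908810 counts. Cardiomyocyte markers were high, as the left ventricular label implies: 8 genes such as Myh6, Tnnt2 and Ryr2 summed to between 54094 and 68584 CPM, with none at 0 in any library. UNX/DOCA vehicle replicates 3 and 4 stand apart by neutrophil RNA: 6 neutrophil markers summed to 499 and 148 CPM there, against 3.62 to 43.4 CPM in the other 10 libraries. The counts of genes that passed, for the 10 genes, the wider G1 pathway and the S phase and mitosis list, were therefore repeated without these libraries. In bulk tissue, fewer cells of a type and less RNA per cell cannot be told apart.

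Per kilobase of exon, the 10 genes spanned a wide range of levels. Cdkn1a was the most abundant at 22.8 ± 10.8 CPM per kilobase (SD over 12 libraries), followed by Cdk4 at 11.3 ± 0.981 and Ccnd2 at 10.2 ± 2.06. Cdkn1b followed at 5.91 ± 1.01, Ccnd1 at 4.54 ± 0.824, Ccnd3 at 4.14 ± 0.425, Cdkn1c at 2.95 ± 0.723 and Cdkn2c at 2.49 ± 0.296. Cdk6 at 1.09 ± 0.145 and Cdkn2b at 0.356 ± 0.137 were the lowest, the latter resting on 7 to 28 counts per library. Some neighbours in this order were not cleanly separated: Cdk4 exceeded Ccnd2 in 8 of 12 libraries, Ccnd1 exceeded Ccnd3 in 10 and Cdkn1c exceeded Cdkn2c in 9. For the other neighbouring pairs the order held in all 12 libraries. Thus Cdk4 RNA was far more abundant than Cdk6, and p21 RNA than that of any other inhibitor. The exon lengths come from GRCm38 gene models that join all transcripts of a gene, so genes with long minor transcripts are understated.

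**Figure D1:**
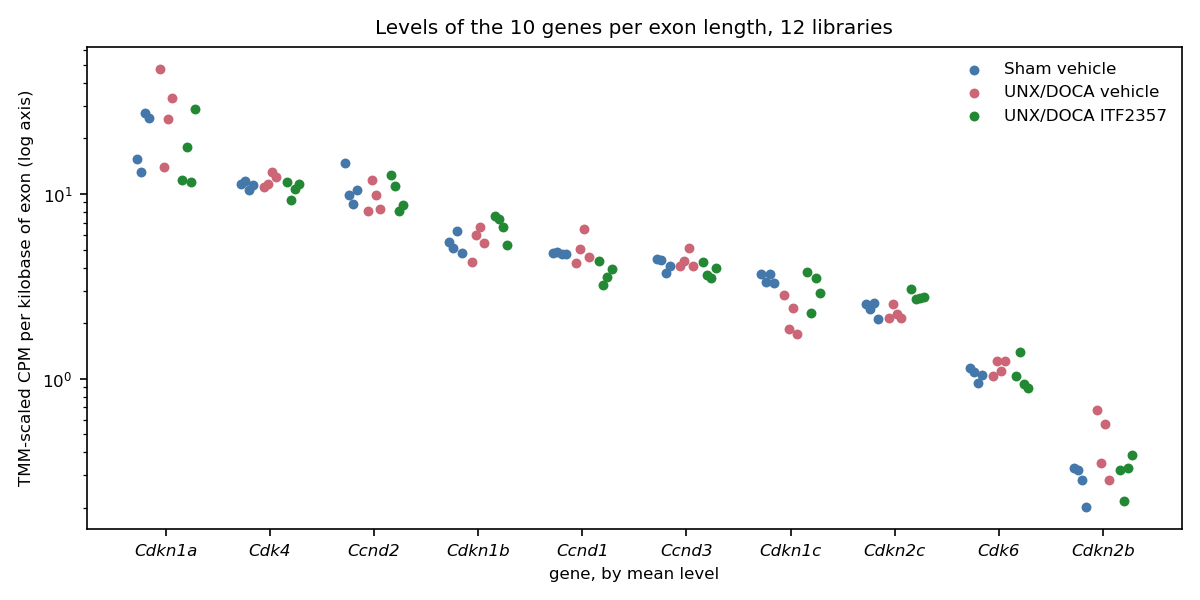
Levels of the 10 genes in TMM-scaled CPM per kilobase of exon on a log axis, with 1 point per library and colours for the 3 groups. Cdkn1a is highest and most scattered, and Cdkn2b lowest.

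Among the inhibitors, Cdkn1a varied most between animals of the same group. In Sham vehicle it stood at 55.0, 46.7, 98.2 and 91.8 CPM, in UNX/DOCA vehicle at 169, 49.8, 90.9 and 118, and in UNX/DOCA ITF2357 at 42.4, 64.0, 41.4 and 103 (replicates 1 to 4). The groups overlap throughout, and each group holds both low and high hearts. Its coefficient of variation within groups was 43.0%, against a median of 16.5% over all tested genes and 7.58% for Cdkn2c. The mean in the drug group, 62.7 ± 28.7 CPM (SD, n = 4), lay below both the 107 ± 50.02 of UNX/DOCA vehicle and the 72.9 ± 25.9 of Sham vehicle. The fitted log2 fold change against UNX/DOCA vehicle was -0.77 ± 0.40 SE (edgeR adjusted p = 0.328), with a 95% interval from -1.65 to 0.11. Against Sham vehicle the interval reached from -1.09 to 0.66 (edgeR adjusted p = 0.803). Between UNX/DOCA vehicle and Sham vehicle the log2 fold change was 0.55 ± 0.40 (adjusted p = 0.535), and 0.23 without UNX/DOCA vehicle replicate 1, the highest library.

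Cdkn1c, the inhibitor p57 and an imprinted gene, gave the smallest p of the 10 genes in any comparison. It stood at 7.57, 6.82, 7.52 and 6.69 CPM in Sham vehicle and at 5.80, 3.81, 4.90 and 3.56 CPM in UNX/DOCA vehicle. All 4 UNX/DOCA vehicle hearts lay below all 4 Sham hearts, as in 4.36% of all tested genes. In UNX/DOCA ITF2357 it stood at 7.73, 4.65, 7.11 and 5.97 CPM, overlapping both other groups. The log2 fold change of UNX/DOCA vehicle against Sham vehicle was -0.66 ± 0.18 SE (fold 0.633, unadjusted p = 0.00307), and after adjustment over all genes it missed the threshold (edgeR adjusted p = 0.135). It did pass with DESeq2 (adjusted p = 0.0248), with limma-voom (adjusted p = 0.0331), with no filter (edgeR adjusted p = 0.0385) and without UNX/DOCA vehicle replicate 1 (edgeR adjusted p = 0.0439). These settings called 3.49%, 3.07%, 0.480% and 2.20% of all genes. Replicate 1, left out in the last of them, had the highest Cdkn1c level of the UNX/DOCA vehicle hearts. In 19 of 23 alternatives Cdkn1c was not called. Its log2 fold change lay between -0.81 and -0.57 over all settings. Against UNX/DOCA vehicle, the log2 fold change of the drug group was 0.49 ± 0.18 (adjusted p = 0.178), and against Sham vehicle -0.17 ± 0.18 (adjusted p = 0.643). These comparisons share samples, so the level in UNX/DOCA vehicle enters both values that use that group. Erythroid markers separated Sham and UNX/DOCA vehicle in the same direction: the 6 genes summed to 427 to 538 CPM in Sham vehicle and 162 to 364 CPM in UNX/DOCA vehicle, with none at 0, and their part in the Cdkn1c result was not tested. Cdkn1c overlaps an opposite-strand gene model that had 0 counts in every library.

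Cdkn2c, the INK4 inhibitor p18, stood higher in all drug-treated hearts than in any other heart. Its levels were 6.84, 6.43, 6.88 and 5.69 CPM in Sham vehicle, 5.74, 6.79, 6.03 and 5.72 in UNX/DOCA vehicle, and 8.17, 7.26, 7.38 and 7.42 in UNX/DOCA ITF2357. The difference was small but tight: the drug mean of 7.56 ± 0.416 CPM compared with 6.07 ± 0.501 in UNX/DOCA vehicle hearts and 6.46 ± 0.556 in Sham vehicle (SD, n = 4). The log2 fold change was 0.32 ± 0.11 SE against UNX/DOCA vehicle (fold 1.24, edgeR adjusted p = 0.145) and 0.23 ± 0.11 against Sham vehicle (adjusted p = 0.252). Neither passed. Full separation above UNX/DOCA vehicle occurred in 4.95% of all tested genes, and above Sham vehicle in 7.27%.

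Cdkn1b, which encodes p27 and holds resting cells in G1, stood at 24.98, 23.3, 28.8 and 21.8 CPM in Sham vehicle and at 19.6, 27.5, 30.3 and 24.7 in UNX/DOCA vehicle. In UNX/DOCA ITF2357 it stood at 34.4, 33.4, 30.0 and 24.2 CPM, so that 2 of the 4 drug-treated hearts exceeded every other heart and 1 lay within both other groups. The log2 fold change was 0.26 ± 0.14 SE against UNX/DOCA vehicle (edgeR adjusted p = 0.353) and 0.30 ± 0.14 against Sham vehicle (adjusted p = 0.258). Cdkn2b, encoding the TGF-beta responsive inhibitor p15, was near the detection limit. It had 12, 16, 10 and 7 counts in Sham vehicle, 28, 15, 19 and 11 in UNX/DOCA vehicle hearts and 12, 10, 14 and 13 in UNX/DOCA ITF2357. Its level was 0.654 ± 0.257 CPM in UNX/DOCA vehicle against 0.395 ± 0.0808 in Sham vehicle (log2 fold change 0.71 ± 0.32 SE, edgeR adjusted p = 0.309), with overlap between the groups.

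**Figure D2:**
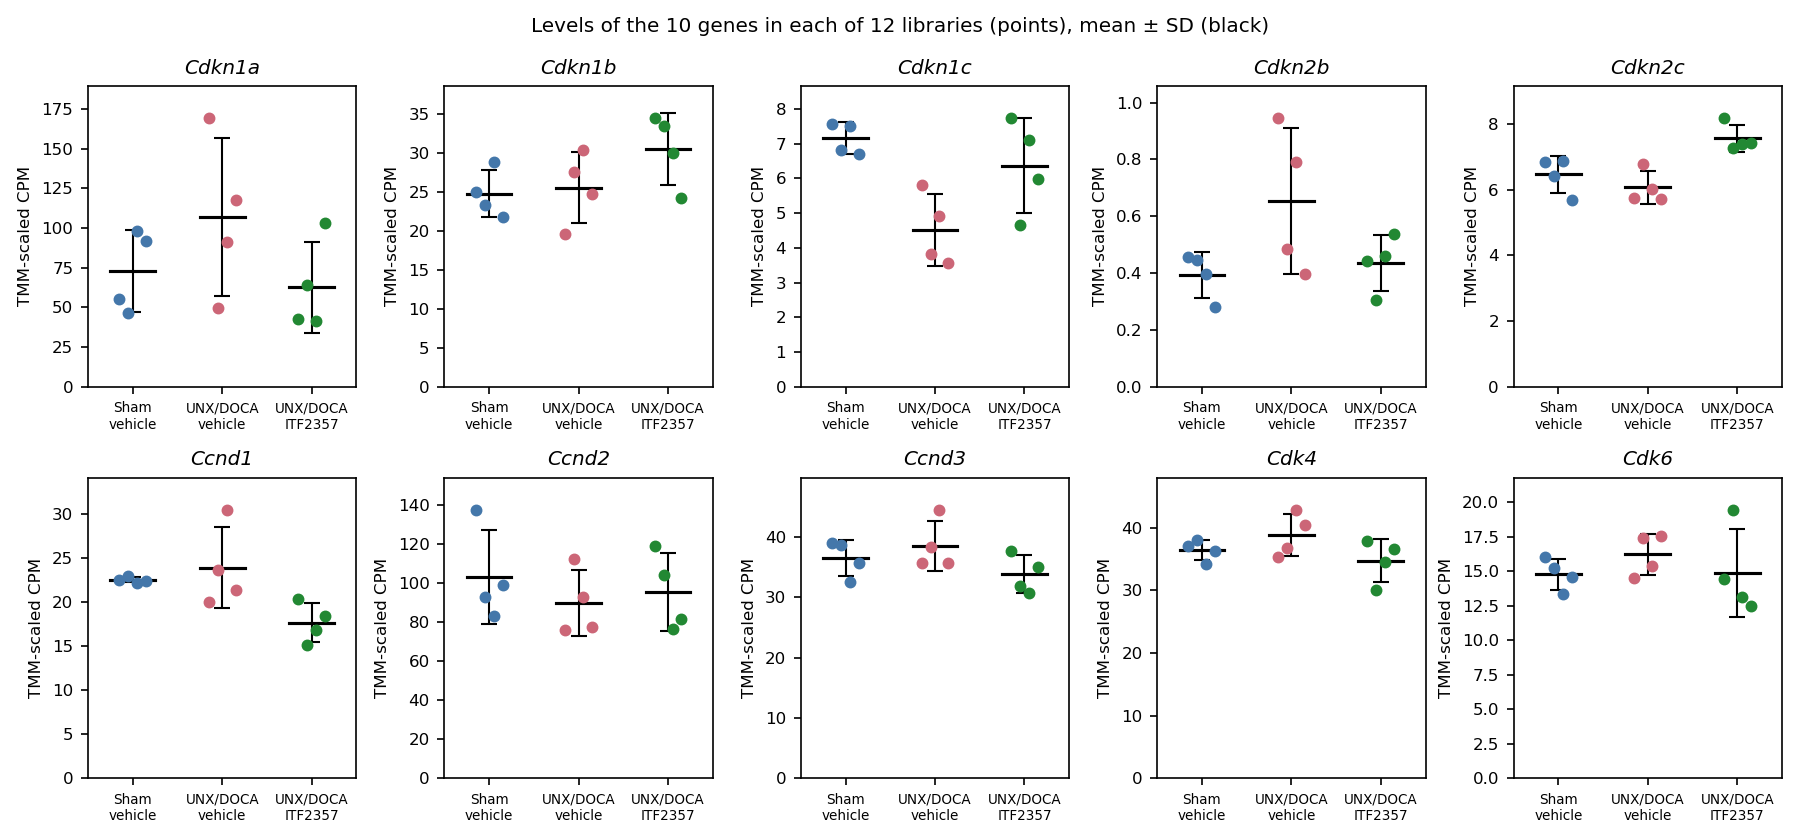
TMM-scaled CPM of each gene in each library (points), by group, with the mean and SD over 4 libraries in black and axes from 0. Cdkn2c is at least 7.26 CPM in each library of the drug group and at most 6.88 CPM elsewhere, Cdkn1c is lowest in UNX/DOCA vehicle, and Cdkn1a overlaps in all groups.

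Among the D-type cyclins, Ccnd1 was lowest in the drug-treated hearts. This mitogen-induced cyclin stood at 22.5, 22.9, 22.2 and 22.4 CPM in Sham vehicle, a spread of 0.310 CPM (SD). In UNX/DOCA vehicle it stood at 20.04, 23.7, 30.5 and 21.4 CPM, the highest value being that of replicate 3, and in UNX/DOCA ITF2357 at 20.3, 15.1, 16.8 and 18.4 CPM. All drug-treated hearts lay below all Sham hearts, as in 6.39% of all tested genes, and overlapped UNX/DOCA vehicle by a single pair of near-equal values. The log2 fold change was -0.44 ± 0.13 SE against UNX/DOCA vehicle (fold 0.739, unadjusted p = 0.00420, edgeR adjusted p = 0.106) and -0.35 ± 0.13 against Sham vehicle (adjusted p = 0.145). Against UNX/DOCA vehicle it passed with DESeq2 (adjusted p = 0.0324) and with no filter (edgeR adjusted p = 0.0491), settings that called 5.46% and 0.804% of all genes. Against Sham vehicle it passed with limma-voom (adjusted p = 0.0306), which called 8.87%. Lymphocyte markers moved the same way: 8 genes summed to 1.31 to 1.81 CPM in the drug group, 2.13 to 4.14 in UNX/DOCA vehicle hearts and 2.77 to 4.28 in Sham vehicle, with up to 1 gene at 0 in a library. Other cell type lists were also lower with the drug than in UNX/DOCA vehicle: 7 of 8 fibroblast markers (median log2 fold change -0.26), 7 of 8 macrophage markers (-0.41) and 5 of 5 tested neutrophil markers (-3.65) lay below 0. The sums of these 3 lists overlapped between the 2 groups. Against Sham vehicle the medians were -0.01 for fibroblast markers (4 of 8 above 0), 0.28 for macrophage markers (7 of 8 above 0) and -1.18 for neutrophil markers (0 of 5 above 0). UNX/DOCA vehicle replicate 3, which had the highest Ccnd1 level, had the highest sum of all 3 lists, and fibroblast markers summed to 1468 CPM there against 738 to 932 CPM in the drug group. Without that library the Ccnd1 log2 fold change against UNX/DOCA vehicle was -0.30 (edgeR adjusted p = 0.176). The part of these cell types in the Ccnd1 result was not tested. Ccnd1 shares 818 exon bases with LTO1 on the opposite strand, and the strand setting of the counting is not given. For LTO1 the log2 fold change was -0.08 between the drug and UNX/DOCA vehicle groups (edgeR adjusted p = 0.854) and -0.28 between the drug and Sham vehicle groups (adjusted p = 0.425), the same direction as Ccnd1.

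Ccnd2 had the highest level of the D-type cyclins, in CPM and per kilobase of joined exons, and showed no group difference beyond its spread. It stood at 138, 93.1, 83.1 and 99.4 CPM in Sham vehicle, at 76.3, 113, 92.8 and 77.9 in UNX/DOCA vehicle hearts and at 119, 105, 76.5 and 81.9 in UNX/DOCA ITF2357. The log2 fold change of the drug against UNX/DOCA vehicle was 0.09, with a 95% interval from -0.31 to 0.48. Ccnd3 was steadier. It stood at 39.0, 38.6, 32.6 and 35.6 CPM in Sham vehicle, at 35.7, 38.3, 44.5 and 35.7 in UNX/DOCA vehicle hearts and at 37.7, 31.9, 30.8 and 35.01 in UNX/DOCA ITF2357. Its log2 fold change with the drug was -0.19 ± 0.10 SE against UNX/DOCA vehicle (edgeR adjusted p = 0.311) and -0.11 ± 0.10 against Sham vehicle (adjusted p = 0.566). As with Ccnd1, replicate 3 was the highest of the UNX/DOCA vehicle libraries. Ccnd3 shares 361 exon bases with Bysl on the opposite strand, whose log2 fold changes of -0.19 and -0.12 in these comparisons (edgeR adjusted p = 0.336 and 0.556) were close to those of Ccnd3. Reads of the pair cannot be told apart if strand was ignored in the counting.

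The make-up of the D-type cyclin RNA was compared as a share within each library, which needs no scaling between libraries. The shares use exon lengths that join all transcripts, 4709 bases for Ccnd1, 9409 for Ccnd2 and 8775 for Ccnd3. A gene with long minor transcripts is therefore understated in them. Ccnd2 made up 54.7% ± 4.69 of the D-type cyclin RNA per exon length in Sham vehicle, 50.1% ± 4.21 in UNX/DOCA vehicle hearts and 56.8% ± 4.60 in the UNX/DOCA ITF2357 group (SD, n = 4). Ccnd1 made up 24.3% ± 3.08, 26.6% ± 2.78 and 21.3% ± 2.74 in the same order, and Ccnd3 21.01% ± 1.81, 23.2% ± 1.93 and 21.9% ± 1.96. The largest difference in the Ccnd1 share was -5.35 percentage points between the drug and UNX/DOCA vehicle groups (two-sided exact permutation p = 0.0571, adjusted p = 0.411 over 12 such tests). For Ccnd2 the same comparison gave 6.72 points (exact permutation p = 0.0857, adjusted p = 0.411). With 4 against 4 animals the smallest p that can be reached is 0.0286, and none of the 12 comparisons reached it.

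**Figure D3:**
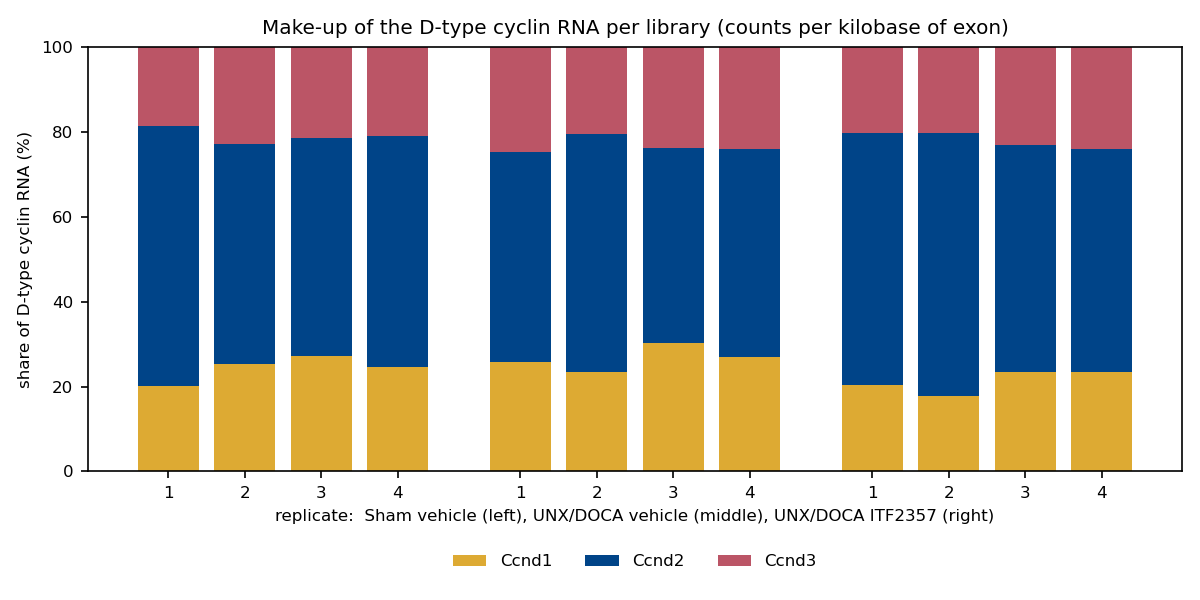
Share of Ccnd1, Ccnd2 and Ccnd3 in the D-type cyclin RNA of each library, in percent of counts per kilobase of exon, with 1 bar per library. By exon lengths that join all transcripts of a gene, Ccnd2 makes up the largest part in all 12 libraries, between 46.1% and 61.9%.

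The kinases that these cyclins activate varied little. Cdk4 stood at 37.0, 38.1, 34.2 and 36.4 CPM in Sham vehicle, at 35.4, 36.7, 42.9 and 40.4 in UNX/DOCA vehicle hearts and at 37.9, 30.1, 34.5 and 36.6 in UNX/DOCA ITF2357. Its 95% intervals of the log2 fold change ran from -0.10 to 0.28 for UNX/DOCA vehicle against Sham vehicle and from -0.35 to 0.03 for the drug against UNX/DOCA vehicle (edgeR adjusted p = 0.635 and 0.342). Part of its exons overlap Tspan31 on the opposite strand, whose log2 fold changes were 0.10 and -0.02 in these comparisons (edgeR adjusted p = 0.501 and 0.911). Cdk6 stood at 16.005, 15.2, 13.3 and 14.6 CPM in Sham vehicle, at 14.5, 17.4, 15.4 and 17.5 in UNX/DOCA vehicle hearts and at 14.5, 19.5, 13.1 and 12.5 in UNX/DOCA ITF2357. Replicate 2 of the drug group was the highest library and 2 others of that group the lowest, and the log2 fold change against UNX/DOCA vehicle was -0.12 with a 95% interval from -0.41 to 0.16. Cdk6 made up 8.61% ± 0.355 of the Cdk4 and Cdk6 RNA per exon length in Sham vehicle, 8.87% ± 0.919 in UNX/DOCA vehicle hearts and 9.17% ± 2.62 in the UNX/DOCA ITF2357 group (SD, n = 4, exact permutation adjusted p = 0.720 to 1).

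Counted together, 0 of the 10 genes passed at an edgeR adjusted p of 0.05 in any of the 3 comparisons. Between UNX/DOCA vehicle and Sham vehicle the background was 0% of all tested genes called, between the drug and UNX/DOCA vehicle 0.901% (0.459% higher and 0.442% lower), and between the drug and Sham vehicle 1.75%. At an unadjusted p under 0.05 there were 2, 3 and 1 of the 10 genes in these comparisons, where 15.9%, 18.5% and 20.1% of all tested genes reached that level. The groups did not overlap for 1, 1 and 2 of the 10 genes, against 9.39% (5.03% above and 4.36% below), 9.31% (4.95% above and 4.36% below) and 13.7% (7.27% above and 6.39% below) of all genes. These shares are near the background. DESeq2 called 1 gene (Cdkn1c), 1 gene (Ccnd1) and 0 genes, and limma-voom 1 gene (Cdkn1c), 0 genes and 1 gene (Ccnd1), where of all genes DESeq2 called 3.49%, 5.46% and 6.95% and limma-voom 3.07%, 1.48% and 8.87%. Without UNX/DOCA vehicle replicates 3 and 4 edgeR called 0 in each comparison. The median log2 fold change of the 10 genes was 0.08, -0.14 and -0.09, beside 0.01, -0.00 and 0.01 over all tested genes. Within the drug comparison against UNX/DOCA vehicle, the 5 inhibitors had a median of 0.26 with 3 of 5 above 0, and the 5 cyclins and kinases a median of -0.16 with 1 of 5 above 0.

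**Figure D4:**
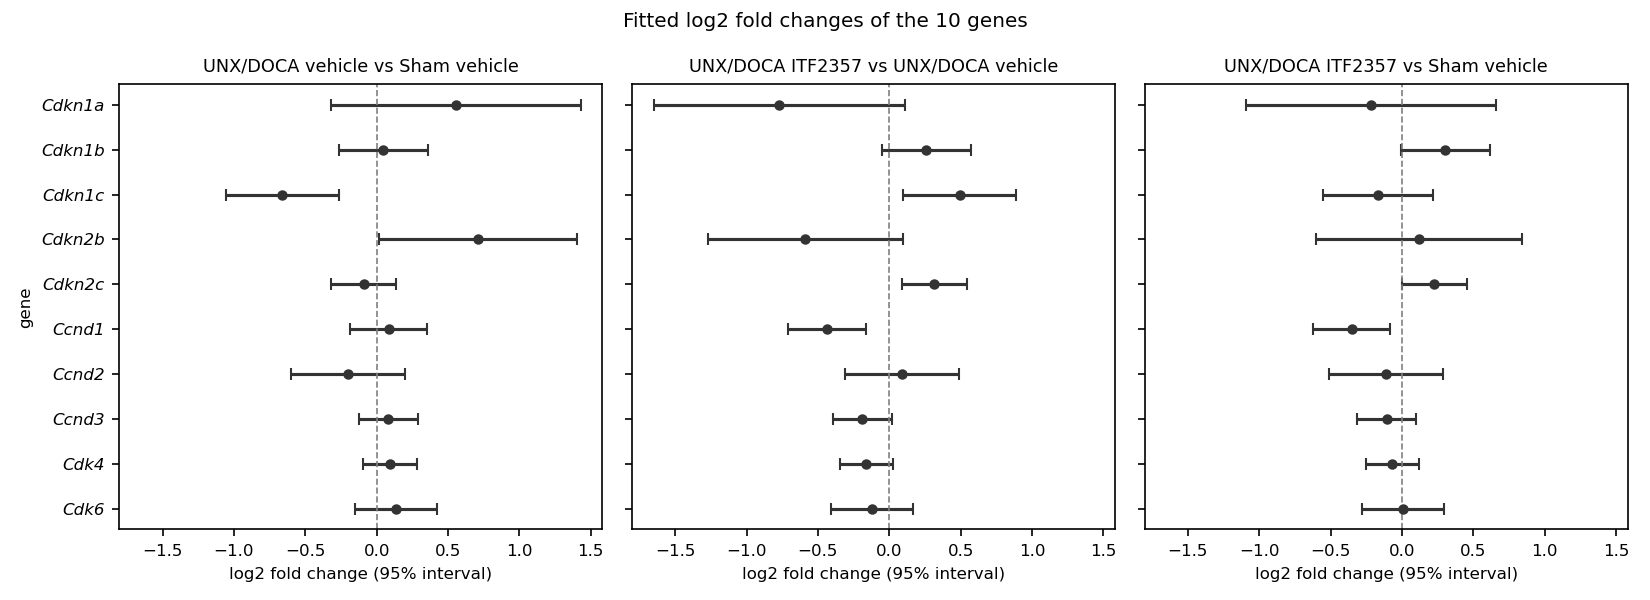
Fitted log2 fold changes of the 10 genes with their 95% intervals from edgeR, in the 3 comparisons. The intervals of Cdkn1c, Cdkn2c and Ccnd1 lie off 0 between the drug and UNX/DOCA vehicle groups, and 0 of the 10 genes passed after adjustment over all genes.

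The wider G1 pathway was read from 88 genes in 6 lists, of which 82 were tested. Of these, 0 passed between UNX/DOCA vehicle and Sham vehicle, 0 between the drug and UNX/DOCA vehicle, and 2 were called lower and 0 higher between the drug and Sham vehicle, beside 0.913% of all genes called higher and 0.842% called lower there. Tfdp1, a DP partner with which many E2F factors bind DNA, was called in that comparison. It stood at 27.2, 28.7, 26.7 and 28.9 CPM in Sham vehicle, at 28.3, 26.1, 26.3 and 26.6 in UNX/DOCA vehicle hearts and at 23.1, 22.3, 22.6 and 22.1 in UNX/DOCA ITF2357. All drug-treated hearts lay below all others. Of all tested genes, 6.39% lay fully below Sham vehicle with the drug and 4.36% fully below UNX/DOCA vehicle. The log2 fold change of Tfdp1 was -0.31 ± 0.06 SE against Sham vehicle (edgeR adjusted p = 0.0366) and -0.25 ± 0.06 against UNX/DOCA vehicle (adjusted p = 0.0755). Rnf123, a ubiquitin ligase subunit that targets p27 for degradation, was the other. It stood at 64.3, 59.8, 60.9 and 60.5 CPM in Sham vehicle, at 53.5, 59.3, 62.5 and 51.7 in UNX/DOCA vehicle hearts and at 43.7, 48.0, 49.6 and 41.7 in UNX/DOCA ITF2357 (log2 fold change against Sham vehicle -0.42 ± 0.08, edgeR adjusted p = 0.0269, and against UNX/DOCA vehicle -0.31 ± 0.08, adjusted p = 0.0768). The count of 2 became 0 without Sham vehicle replicate 1, 2 or 4 or without UNX/DOCA ITF2357 replicate 4, became 1 without UNX/DOCA ITF2357 replicate 2 or 3, and was 3 without UNX/DOCA vehicle replicates 3 and 4. With upper quartile scaling or library totals only, 1 passed and Tfdp1 did not (edgeR adjusted p = 0.0533 and 0.0690). Tfdp1 also missed with no filter (edgeR adjusted p = 0.142), where Dtl passed beside Rnf123. It missed with replicate number as a block (edgeR adjusted p = 0.0598) and without UNX/DOCA vehicle replicate 4 (edgeR adjusted p = 0.0560), where Fbxw7 and Dtl passed instead. DESeq2 called 7 and limma-voom 8 of the pathway genes in that comparison, where they called 6.95% and 8.87% of all genes, so these counts are near the background. Between the drug and UNX/DOCA vehicle DESeq2 called 8 pathway genes lower and 0 higher, beside 5.46% of all genes called in either direction. They were Ccna2, Cks1b, E2f4, Fbxo4, Rnf123, Stat3, Tfdp1 and Trp53. There limma-voom called 0 and edgeR with no filter called 2 (beside 0.804% of all genes). Without UNX/DOCA vehicle replicate 1, 3 passed. The share of all genes called in that setting is not given here, so this count cannot be set against a background. Between UNX/DOCA vehicle and Sham vehicle DESeq2 called 1 and limma-voom 2, beside 3.49% and 3.07%.

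The remaining G1 lists held values that did not pass by edgeR with its filter and all 12 libraries. Among 10 tested G1/S cyclins and kinases, Ccna2, the S-phase cyclin A, averaged 0.481 ± 0.205 CPM with the drug and 1.37 ± 0.664 in UNX/DOCA vehicle (edgeR adjusted p = 0.0807), without overlap. Ccnc, a cyclin of the Mediator complex, averaged 11.1 ± 0.603 against 9.12 ± 0.704 CPM (adjusted p = 0.132), also without overlap. Of all tested genes, 4.36% lay fully below UNX/DOCA vehicle with the drug and 4.95% fully above. In the list of 18 p53 pathway genes the median log2 fold change with the drug was 0.05 against UNX/DOCA vehicle, with 0 called in any comparison by edgeR with its filter. Trp53 itself averaged 12.2 ± 1.75 CPM with the drug and 17.7 ± 4.44 in UNX/DOCA vehicle (adjusted p = 0.118), while the target gene Phlda3 averaged 5.35 ± 0.597 and 4.26 ± 0.563 CPM (adjusted p = 0.202). DESeq2 and edgeR with no filter called Trp53 lower between these groups, beside 5.46% and 0.804% of all genes called. Between the drug and Sham vehicle DESeq2 and limma-voom called Phlda3, and limma-voom also Mdm2, beside 6.95% and 8.87% of all genes. Among upstream factors Stat3 averaged 241 ± 46.5 CPM in UNX/DOCA vehicle, 145 ± 19.4 in Sham vehicle and 160 ± 28.05 with the drug (adjusted p = 0.0954 for UNX/DOCA vehicle against Sham vehicle and 0.0817 for the drug against UNX/DOCA vehicle). Stat3 passed in both comparisons with DESeq2 and without UNX/DOCA vehicle replicate 1. Between UNX/DOCA vehicle and Sham vehicle it also passed with limma-voom and with replicate number as a block. Of the other inhibitors listed, Cdkn2d was the only tested one, at 9.27 ± 0.966 CPM with the drug and 10.6 ± 1.08 in UNX/DOCA vehicle (adjusted p = 0.332).

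Downstream of G1, the median of the log2 fold changes of 25 S phase and mitosis genes was -0.67 with the drug against UNX/DOCA vehicle, with 3 called lower and 0 higher, and -0.96 against Sham vehicle, with 2 called lower and 0 higher. Background shares were 0.442% and 0.842% of all genes called lower. Top2a, the DNA topoisomerase of dividing cells, stood at 3.69, 3.27, 2.37 and 2.40 CPM in Sham vehicle, at 1.82, 5.82, 1.95 and 4.64 in UNX/DOCA vehicle hearts and at 0.333, 0.850, 0.328 and 0.704 in UNX/DOCA ITF2357 (edgeR adjusted p = 0.0204 against UNX/DOCA vehicle). Ccnb2, a mitotic cyclin, averaged 0.192 ± 0.0468 CPM with the drug and 0.724 ± 0.148 in UNX/DOCA vehicle (adjusted p = 0.0110), and Bub1, a spindle checkpoint kinase, 0.0952 ± 0.0256 and 0.530 ± 0.278 CPM (adjusted p = 0.0434). Counts were few: in the drug group Ccnb2 had 5, 8, 4 and 5 and Bub1 3, 4, 2 and 2. With single libraries left out, Bub1 passed only without UNX/DOCA vehicle replicate 1 (edgeR adjusted p = 0.0112). Otherwise its edgeR adjusted p was 0.0587 to 0.123, and with replicate number as a block it was 0.0848. Against UNX/DOCA vehicle, 0 of the 25 genes passed without UNX/DOCA vehicle replicates 3 and 4 or without UNX/DOCA ITF2357 replicate 1, and 1 passed without UNX/DOCA vehicle replicate 4 or without UNX/DOCA ITF2357 replicate 3 or 4, while DESeq2 and limma-voom each called 9, beside 5.46% and 1.48% of all genes. With only the 2 groups compared in the fit, 0 passed (edgeR adjusted p = 0.0738 for Ccnb2 and 0.0966 for Top2a), with the filter of 1 CPM in 4 libraries 1 passed, and with no filter 7. Against Sham vehicle the count of 2 was 1 without Sham vehicle replicate 1, 2 or 4, without UNX/DOCA ITF2357 replicate 3 or 4 or with the 1 CPM filter. It was 4 without UNX/DOCA vehicle replicate 3, without replicates 3 and 4 of that group or with no filter, 7 with DESeq2 and 8 with limma-voom. Summed over the 25 genes, the level was 63.0 to 87.2 CPM in the drug group, 83.3 to 110 in UNX/DOCA vehicle hearts and 89.4 to 120 in Sham vehicle. The sum thus overlapped between the drug and UNX/DOCA vehicle groups. Lymphocyte marker sums were lower with the drug than in both other groups, as given above, but only 3 of those 8 genes were tested. The part of lymphocytes was not tested.

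**Figure D5:**
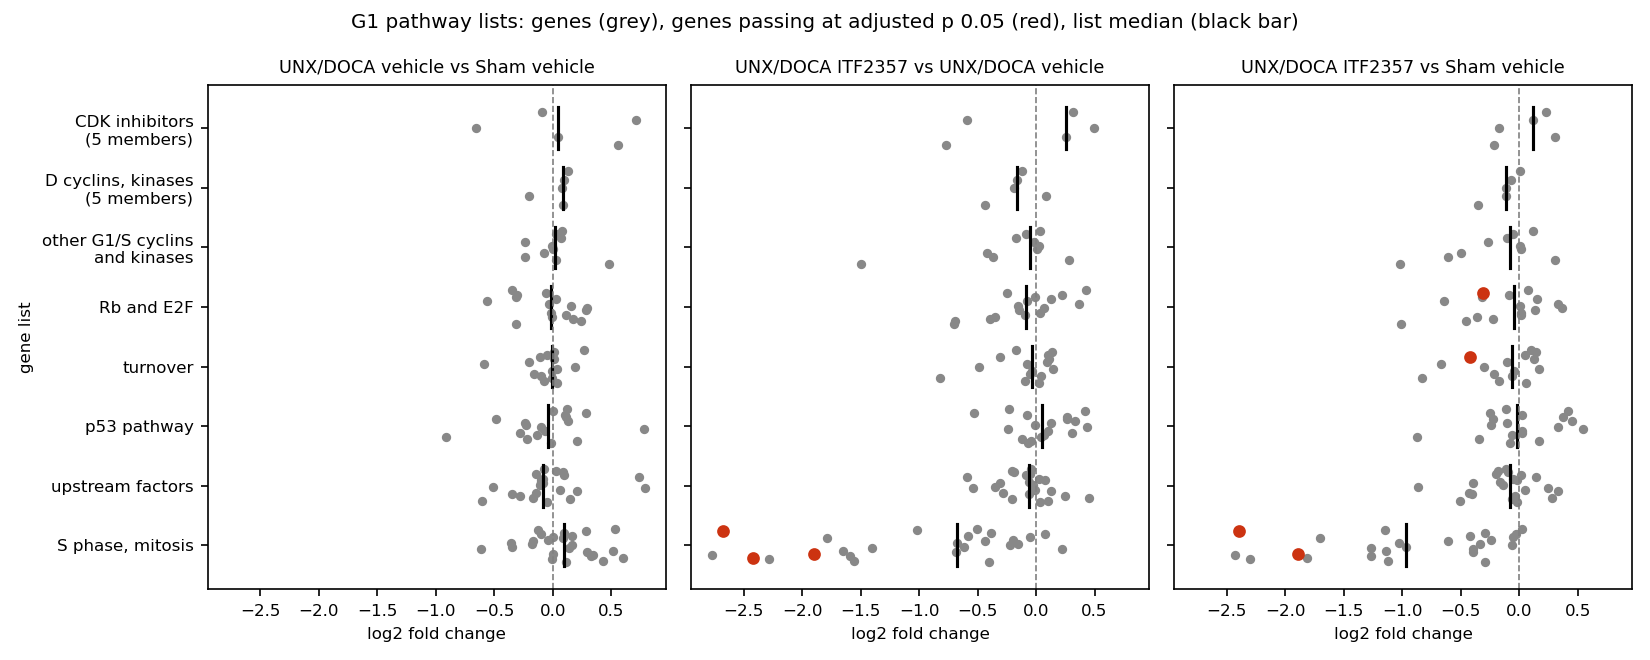
Log2 fold changes of single genes (points) in the 2 member lists, 5 further G1 lists and the S phase and mitosis list, in the 3 comparisons, with list medians as black bars and genes that passed in red. The S phase and mitosis genes lie furthest below 0 in both drug comparisons, with list medians of -0.67 and -0.96.

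The genes most like Cdkn1c over the 12 libraries were sought among 13193 tested genes of at least 1 CPM, by the root mean square difference of centred log2 CPM. They were Fbxo10 (0.17 log2 units), Ralgps2 (0.18) and Ecm2 (0.18), against a spread of 0.38 for Cdkn1c itself. Fbxo10 stood at 23.1, 19.4, 22.3 and 21.6 CPM in Sham vehicle, at 19.9, 13.6, 15.4 and 12.8 in UNX/DOCA vehicle hearts and at 22.7, 14.4, 18.6 and 13.7 in UNX/DOCA ITF2357. As for Cdkn1c, replicate 1 was the highest of both operated groups.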

How the data were processed

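Poly(A) RNA of about 10 mg of left ventricle was sequenced as paired reads with a directional kit, per the labels' protocols. The authors deposited 1 table of raw counts per gene. Reads were aligned with STAR 2.7.10b to mm39 and checked with FastQC 0.11.9, per the submitters' processing notes, while no source used here gives the counting tool, its strand setting or the annotation. Groups follow the titles; the treatment field numbers the 4 drug libraries differently.

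Counts were tested with edgeR 4.0.16 (quasi-likelihood F test, TMM scaling, filterByExpr, 1 term per group, all 12 libraries, Benjamini-Hochberg adjustment over 16981 genes, threshold 0.05), after the fit was tested on simulated data. Alternatives were other scalings and filters, DESeq2 1.42.0, limma 3.58.1 (voom with sample weights), the replicate block, the 2 groups alone and libraries left out. Symbols were matched for at least 99.17% of the counts of each library, and mitochondrially encoded genes took 23.7% to 27.8%. Exon lengths came from GRCm38 models. Shares within libraries were compared by two-sided exact permutation tests (scipy 1.17.1). Replicate numbers were not treated as pairs, because they are not said to pair animals. Deviations of same-numbered libraries correlated between -0.19 and 0.29 over 12 pairs. Libraries of different number were not correlated, so these values cannot decide whether the numbers pair animals. The labels give no batch.

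The members, gene lists and marker lists were chosen with earlier results of these data known. Named beyond the 10 genes were list genes that passed or were among the 3 smallest p-values of their list, and the 3 genes nearest in pattern to the gene with the smallest p, among genes of at least 1 CPM on average (prior count 2).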

Additional observations from a re-analysis of the deposited data

Results flagged for a closer look

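The share of Cdk6 in the Cdk4 and Cdk6 RNA stood apart in UNX/DOCA ITF2357 replicate 2, at 13.1% against 7.33% to 8.15% in the other libraries of its group. Its gap to the nearest library was 0.857 of the group's range, above Dixon's 95% critical value for 4 samples. It was the only such value in 42 groups checked, fewer than a 95% criterion gives by chance alone.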

How the results depend on the processing

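For the 10 genes, calls appeared under these settings: Cdkn1c between UNX/DOCA vehicle and Sham vehicle (1 gene called with no filter, DESeq2, limma-voom and without UNX/DOCA vehicle replicate 1), Ccnd1 between the drug and UNX/DOCA vehicle (1 gene with no filter and DESeq2) and Ccnd1 between the drug and Sham vehicle (1 gene with limma-voom). Leaving out each library in turn gave 0 to 1, 0 to 0 and 0 to 0 genes called in the 3 comparisons. The cause was not tested.

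With the replicate block, 0, 0 and 0 of the 10 genes passed, while calls over all genes went from 0, 153 and 298 to 31, 68 and 192. All-gene calls ranged from 0 to 593, 5 to 928 and 17 to 1506 over the alternatives.

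Values near 0 changed sign. Between UNX/DOCA vehicle and Sham vehicle the log2 fold change of Ccnd1 was -0.0060 with limma-voom, and without UNX/DOCA vehicle replicates 3 and 4 it was -0.044, with Cdk4 at -0.014 and Cdkn1b at -0.071. Between the drug and Sham vehicle Cdk6 was -0.0073 with no filter, -0.0496 with limma-voom and -0.0028 with the replicate block. Leaving out single libraries gave -0.047 to 0.15 for Cdkn1b and -0.055 to 0.15 for Ccnd1 between UNX/DOCA vehicle and Sham vehicle, and -0.039 to 0.22 for Ccnd2 between the drug and UNX/DOCA vehicle. Between the drug and Sham vehicle it gave -0.24 to 0.049 for Ccnd2, -0.15 to 0.076 for Cdk6 and -0.0055 to 0.26 for Cdkn2b. The Cdk6 share differed by -0.0861 to 0.646, -1.002 to 0.908 and -0.745 to 1.17 percentage points in the 3 comparisons when single libraries were left out, and by -0.139 between the drug and UNX/DOCA vehicle without UNX/DOCA vehicle replicates 3 and 4. The cause was not tested. Cdkn2b has no value with the filter of 1 CPM in 4 libraries. List counts under the alternatives were computed after seeing the data. At 7 to 28 counts per library, the Cdkn2b comparisons are limited by depth.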

Other observations

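Core clock genes and corticoid targets were read beside the G1 genes. Of 16 clock genes and of 12 corticoid targets, 0 passed in any comparison by edgeR's quasi-likelihood test, with 0 and 1 at an unadjusted p under 0.05 between UNX/DOCA vehicle and Sham vehicle, 6 and 1 between the drug and UNX/DOCA vehicle, and 5 and 5 between the drug and Sham vehicle. Of all tested genes, 15.9%, 18.5% and 20.1% reached that level. All 12 corticoid targets had a log2 fold change above 0 between UNX/DOCA vehicle and Sham vehicle, with a median of 0.40, as did 8678 of all 16981 tested genes, whose median was 0.01. Errfi1, a feedback inhibitor of EGF receptor signalling, averaged 62.3 ± 32.4 CPM with the drug, 182 ± 91.1 CPM in UNX/DOCA vehicle and 172 ± 43.6 CPM in Sham vehicle (SD, n = 4, edgeR adjusted p = 0.132 and 0.125). Npas2, a clock transcription factor, averaged 2.43 ± 0.402 CPM with the drug and 5.52 ± 2.57 CPM in UNX/DOCA vehicle (edgeR adjusted p = 0.105).

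Pattern likeness for Cdkn1a, Ccnd1 and Cdkn2c was computed after their values were seen. Nearest to Ccnd1, whose log2 spread over the 12 libraries was 0.26, was Mboat7 at a root mean square difference of 0.09. Nearest to Cdkn2c, with a spread of 0.17, was Zfand1 at 0.07. For Cdkn1a, with a spread of 0.66, the nearest was S1pr1 at 0.31.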
